A study of Homo sapiens with 6 samples.

Results

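The TCF and LEF factors and the cofactors that work with them were followed at the level of genes and of single transcripts in cells given a plasmid that carries the long noncoding RNA gene TP53TG1 or an empty plasmid. The 10 genes were taken by symbol: the DNA-binding factors TCF7, TCF7L1, TCF7L2 and LEF1, the coactivators BCL9, BCL9L and PYGO2, and the corepressors TLE1, TLE3 and CTBP1. They were 10 of the 58233 genes listed and held 141 of the 199234 transcripts. The study comprised 3 libraries of TP53TG1 plasmid and 3 of empty plasmid (control), all of total RNA from cells labelled Huh7, a line from a human liver carcinoma; no time after transfection is given in the labels. The labels do not say whether replicates were separate cultures, so p-values measure only the spread between these libraries, and that spread may be technical.

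The TCF and LEF proteins bind DNA through a high-mobility-group box and do little on their own. Without Wnt signalling they hold Groucho-type corepressors of the TLE family on their target genes. When beta-catenin accumulates it binds the N-terminal end of TCF, and BCL9 or BCL9L then links beta-catenin to a Pygopus protein. CTBP1, a further corepressor, is recruited by the long C-terminal tail that some TCF7L2 isoforms carry. Isoforms that lack the N-terminal end can bind DNA but not beta-catenin, and for TCF7 such short forms are known to oppose Wnt target transcription.

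The values were transcript FPKM (fragments per kilobase of transcript, scaled to sequencing depth), summed per gene. Their sum over all transcripts ranged from 599081 to 625560 in the TP53TG1 libraries and from 667387 to 890541 in the control libraries. If the smallest step in the values is 1 fragment, the libraries held an estimated 16500000 to 21900000 fragments, and 1 FPKM for a transcript of 3 kb rested on 49.5 to 65.7 fragments. TP53TG1 itself measured 69.8, 134 and 70.5 FPKM in TP53TG1 replicates 1, 2 and 3, against 10.6, 5.25 and 6.15 FPKM in control replicates 1, 2 and 3, so the libraries followed their labels. In the limma test with Benjamini-Hochberg adjustment its log2 fold change of 3.46 had an adjusted p of 0.0573, and of 0.0465 after median-of-ratios scaling. With the replicate number as a block, a pairing that the labels do not state, these were 8.97e-22 and 0.0106. The block leaves little spread to measure within a gene, so limma's p-values with it rest largely on spread pooled over genes. TP53TG1 replicate 1 stood apart, with a scaling factor of 0.601 against 1.006 to 1.188 in the other 5 libraries, and with values above 0 for 54565 transcripts against 68481 to 76835. Over the 12853 genes tested, the log2 fold change had a median of -0.35, and of -0.0040 after scaling, so each change below is read against that shift. Of 8 hepatocyte markers ALB, APOA1 and TTR reached at most 1.22, 0.43 and 0.17 FPKM in any library, and SERPINA1, APOB and AFP at most 1.92, 2.41 and 3.49 FPKM, which is low for the labelled cell type, while TF and HNF4A reached 10.2 and 15.0 FPKM. Of 6 intestinal epithelial markers CDX1 was listed at 0 in all libraries, and KRT20 was the highest, at 51.1 to 112 FPKM in TP53TG1 libraries and 117 to 171 FPKM in control libraries. LGALS4, CDH17 and VIL1 reached 27.1, 20.9 and 2.86 FPKM in TP53TG1 libraries and 135, 33.7 and 5.99 FPKM in control libraries, and CDX2 lay between 4.71 and 10.2 FPKM over all 6. The 5 tested had a median log2 fold change of -1.09, and of -0.71 after scaling. Of them 4 had an unadjusted limma p under 0.05, against 302 of the 12853 genes tested, and 2 after scaling, against 150. For KRT20, CDH17 and VIL1 the groups did not overlap, where 13.3% of tested genes lay lower with TP53TG1. After scaling 2.05% of tested genes lay so, CDH17 and VIL1 among them, and KRT20 overlapped. In limma with Benjamini-Hochberg adjustment 0 of the 5 were called. With the block LGALS4 fell, at an adjusted p of 4.57e-06, against 0.595 with block and scaling. The summed T cell markers reached 0.880 FPKM in TP53TG1 and 1.35 FPKM in control libraries, and summed fibroblast markers were 7.67 to 21.8 FPKM in TP53TG1 and 5.14 to 7.66 FPKM in control libraries. The part of the intestinal and fibroblast markers in the results below was not tested.

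TCF7 carried its signal on a long and a short coding transcript, which differ in the stretch that binds beta-catenin. Stretches of TCF7-201 (ENST00000342854) are shown because they hold the start codons of both forms, in capitals. The first line is its first 180 coding bases, at chr5:134114907-134115086, and the second its coding bases 286 to 405, spliced from chr5:134115357-134115997, both on the plus strand of GRCh38 (GENCODE 29). The ATG of the second line is the start codon of TCF7-203 (ENST00000395023).
TCF7 long: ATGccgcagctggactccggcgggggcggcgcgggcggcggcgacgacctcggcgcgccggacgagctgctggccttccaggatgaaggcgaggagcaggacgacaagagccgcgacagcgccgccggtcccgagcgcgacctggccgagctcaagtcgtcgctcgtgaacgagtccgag
TCF7 second start: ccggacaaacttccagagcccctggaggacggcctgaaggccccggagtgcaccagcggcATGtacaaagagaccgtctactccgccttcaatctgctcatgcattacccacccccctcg
The coding sequence of TCF7-203, 807 bases, was identical to the 3′ end of the 1152 coding bases of TCF7-201 and began 345 bases into it, in the same frame. All coding bases before the second ATG are thus absent from the short form.

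Other members also had coding transcripts that begin or end apart, and their distinguishing ends are shown because the transcript values below turn on them. Capitals mark the start codon, or for TCF7L2 the last codon before the stop. The lines give, on the minus strand, CTBP1-201 from chr4:1238318-1248955 and CTBP1-203 from chr4:1238285-1241331, BCL9L-201 from chr11:118908622-118909939 and BCL9L-202 from chr11:118908511-118908570, and TLE1-203 from chr9:81687399-81688240 and TLE1-201 from chr9:81685682-81685853. For TCF7L2 they give, on the plus strand, TCF7L2-210 from chr10:113165910-113165969 and TCF7L2-216 from chr10:113165572-113165631. All are from GENCODE 29 on GRCh38 and some are spliced across introns.
CTBP1 long: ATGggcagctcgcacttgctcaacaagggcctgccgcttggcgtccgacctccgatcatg
CTBP1 short: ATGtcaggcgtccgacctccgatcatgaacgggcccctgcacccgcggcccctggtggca
BCL9L long: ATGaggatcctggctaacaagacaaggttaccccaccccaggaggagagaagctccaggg
BCL9L short: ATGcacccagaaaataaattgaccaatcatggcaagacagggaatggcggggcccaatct
TLE1 full: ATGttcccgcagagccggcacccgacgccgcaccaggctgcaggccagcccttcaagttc
TLE1 short: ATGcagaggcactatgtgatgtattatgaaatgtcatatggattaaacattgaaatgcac
TCF7L2 long tail: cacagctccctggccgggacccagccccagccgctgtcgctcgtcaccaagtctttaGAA
TCF7L2 short tail: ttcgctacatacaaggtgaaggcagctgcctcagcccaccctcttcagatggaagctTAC
The CTBP1 forms differ only at the 5′ end of the coding sequence, where CTBP1-201 has 39 bases of its own and CTBP1-203 has 6, and share the following 1281. The coding sequence of BCL9L-202, 4386 bases, is the 3′ end of the 4497 of BCL9L-201 and begins 111 bases into it. TLE1-201 codes for 432 bases against 2310 in TLE1-203, and ends early. TCF7L2-210 and TCF7L2-216 share their first 382 coding bases and end at separate stop codons.

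At the level of genes no member passed the threshold. Of the 10, 8 had a mean of at least 1 FPKM and were tested, and TCF7L1 and LEF1 were not. In the limma test with Benjamini-Hochberg adjustment 0 of 8 were called at 0.05, where 0.00778% of all tested genes were called, a single gene, TTC28-AS1_2. In such bulk samples fewer cells of a type and less RNA per cell cannot be told apart. None of the 8 had an unadjusted p under 0.05, against 302 of the 12853 genes tested. Their median log2 fold change was -0.39, close to that of all genes, and -0.01 after scaling. The groups did not overlap for 0 of the 8 before scaling, where 13.3% of tested genes lay lower and 0.428% higher with TP53TG1. After scaling they did not overlap for 1, TCF7, which lay higher, against 2.01% of tested genes that did so and 2.05% that lay lower.

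**Figure D1:**
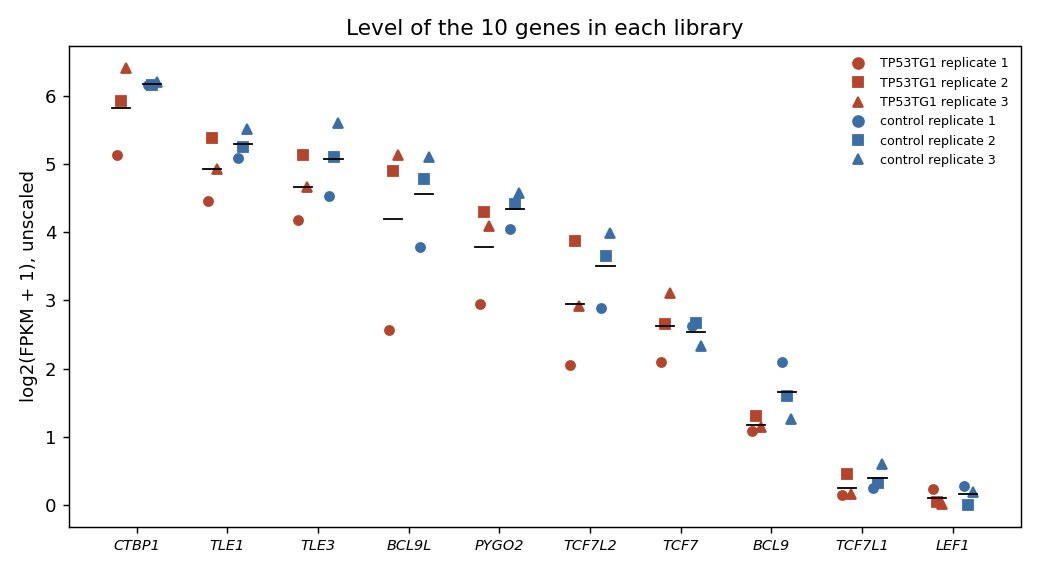
Level of each of the 10 genes as log2(FPKM + 1) in 3 TP53TG1 libraries (red, left) and 3 control libraries (blue, right), ordered by the mean of all 6. Marker shapes give the replicate number and black lines the group means; the groups overlap for every tested gene, and TP53TG1 replicate 1 is the lowest library for all tested genes.

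By mean FPKM over the 6 libraries the order was CTBP1 at 65.1, TLE1 at 34.3, TLE3 at 29.8, BCL9L at 23.4, PYGO2 at 16.7, TCF7L2 at 9.35, TCF7 at 5.12, BCL9 at 1.75, TCF7L1 at 0.260 and LEF1 at 0.0950. In these sums over all transcripts the corepressors stood above the coactivators, and these, BCL9 apart, above the factors they act on. On protein-coding transcripts alone TLE3 averaged 16.4 FPKM with TP53TG1 and 24.2 FPKM in controls, against 21.5 and 24.2 FPKM for BCL9L. TLE3 thus did not stand above BCL9L there. CTBP1 exceeded TLE1, PYGO2 exceeded TCF7L2, TCF7 exceeded BCL9 and BCL9 exceeded TCF7L1 in 6 of 6 libraries. TLE1 exceeded TLE3 and TLE3 exceeded BCL9L in 5 of 6. The order of BCL9L over PYGO2, of TCF7L2 over TCF7 and of TCF7L1 over LEF1 held in 4 of 6, so those neighbours did not separate beyond their spread.

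Among the DNA-binding factors TCF7L2, the main TCF of the intestinal epithelium, and TCF7, first known from T cells, carried nearly all of the signal. TCF7L2 (chr10:112950250-113167678, plus strand) measured 3.13, 13.6 and 6.59 FPKM in TP53TG1 replicates 1, 2 and 3, against 6.38, 11.5 and 14.9 FPKM in the controls. The groups overlapped, with the highest control above every TP53TG1 library and TP53TG1 replicate 2 above the other 2 controls. The log2 fold change was -0.56 with an SE of 0.516 and an adjusted p of 0.748 in limma with Benjamini-Hochberg adjustment, and -0.21 after scaling. The 3 tested genes whose scaled levels followed TCF7L2 most closely over the 6 libraries were TNKS, CNST and ZNF800, at a Pearson r of 0.997, 0.996 and 0.995, and 650 genes exceeded 0.9, so the likeness is shared by many genes that follow the same libraries.

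TCF7 (chr5:134114711-134151865, plus strand) measured 3.28, 5.31 and 7.61 FPKM in TP53TG1 replicates 1, 2 and 3, against 5.17, 5.33 and 4.02 FPKM in the controls. The highest and the lowest library were both TP53TG1 libraries. Its log2 fold change was 0.08 with an SE of 0.376 and an adjusted p of 0.904 in limma with Benjamini-Hochberg adjustment, the single positive value among the 8. After scaling the values were 5.46, 4.81 and 7.56 FPKM with TP53TG1, against 4.65, 4.49 and 3.40 FPKM in controls. Every scaled TP53TG1 value lay above every control, at a log2 fold change of 0.41 with an SE of 0.262 and an adjusted p of 1.0. Without TP53TG1 replicate 3 the unscaled log2 fold change was -0.16, and without control replicate 3 it was -0.02. The gene overlaps SKP1 on the opposite strand, which ranged from 316 to 500 FPKM; TCF7-201 and TCF7-203 end at positions 134147997 and 134148229, before SKP1 begins at 134148935.

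TCF7L1, a TCF known mostly as a repressor in stem cells, measured 0.11, 0.37 and 0.12 FPKM with TP53TG1, against 0.19, 0.25 and 0.52 FPKM in controls. LEF1, often raised where Wnt signalling is strong, measured 0.18, 0.03 and 0.01 FPKM with TP53TG1, against 0.21, 0 and 0.14 FPKM in controls. Both were near the lowest values listed. Protein-coding transcripts of LEF1 were listed at 0 in 5 of 6 libraries and reached 0.01 FPKM in TP53TG1 replicate 3; the rest came from transcripts without a coding sequence. LEF1-AS1, its antisense neighbour, was listed at 0 in all 6.

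The coactivators BCL9 and BCL9L, related adaptors that bind beta-catenin on one side and Pygopus on the other, differed in level. BCL9 (chr1:147541412-147626216, plus strand) measured 1.13, 1.47 and 1.21 FPKM with TP53TG1, against 3.29, 2.03 and 1.39 FPKM in controls. A single TP53TG1 library, replicate 2, exceeded the lowest control. The log2 fold change was -0.47 with an SE of 0.337 and an adjusted p of 0.748 in limma with Benjamini-Hochberg adjustment, and -0.22 after scaling. BCL9L (chr11:118893875-118925608, minus strand) measured 4.90, 28.8 and 34.2 FPKM with TP53TG1, against 12.8, 26.4 and 33.5 FPKM in controls. The libraries numbered 1 were the lowest of both groups, and replicates 2 and 3 overlapped. Its log2 fold change was -0.36 with an SE of 0.671, the widest of the 8, and 0.01 after scaling; without TP53TG1 replicate 1 it was 0.46. The ratio of BCL9L to BCL9 was 4.34, 19.6 and 28.3 with TP53TG1, against 3.89, 13.0 and 24.1 in controls, and so followed the replicate number in both groups.

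PYGO2, the Pygopus protein that reads methylated histone tails and is tethered by BCL9, measured 6.68, 18.7 and 16.0 FPKM with TP53TG1, against 15.5, 20.4 and 22.7 FPKM in controls. TP53TG1 replicate 1 lay apart below all others, and the remaining TP53TG1 libraries exceeded the lowest control. The log2 fold change was -0.56 with an SE of 0.413 and an adjusted p of 0.748 in limma with Benjamini-Hochberg adjustment, and -0.19 after scaling. Nearly all of the gene (chr1:154957026-154963853, minus strand) came from PYGO2-202, at a share of 98.7 ± 1.15% with TP53TG1 and 99.8 ± 0.433% in controls (SD, n = 3 each). SHC1, on the same strand, overlaps PYGO2 from position 154962298 and ranged from 45.7 to 99.5 FPKM. How reads over the overlap were divided between the genes was not tested. PYGO1, the other Pygopus gene, reached 0.02 FPKM in control replicate 2 and was listed at 0 in the other 5 libraries.

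In sums over all transcripts the corepressors were the most abundant members. TLE1 (chr9:81583683-81689305, minus strand), a Groucho protein, measured 20.9, 40.7 and 29.5 FPKM with TP53TG1, against 33.1, 37.1 and 44.8 FPKM in controls. TLE3 (chr15:70047790-70098176, minus strand), its paralog, measured 17.1, 34.2 and 24.4 FPKM with TP53TG1, against 22.2, 33.4 and 47.3 FPKM in controls. For both, TP53TG1 replicate 2 lay among the controls and TP53TG1 replicate 1 below them. The log2 fold change was -0.37 with an SE of 0.323 for TLE1 and -0.42 with an SE of 0.379 for TLE3, both at an adjusted p of 0.748 in limma with Benjamini-Hochberg adjustment, and after scaling they were 0.03 and -0.02. The ratio of TLE1 to TLE3 was 1.22, 1.19 and 1.21 with TP53TG1, against 1.49, 1.11 and 0.947 in controls. The 3 TP53TG1 ratios lay within the control range, at 1.21 ± 0.0135 with TP53TG1 and 1.18 ± 0.278 in controls (SD, n = 3 each).

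CTBP1 (chr4:1211448-1249953, minus strand), a corepressor whose shape responds to NADH, measured 34.2, 59.5 and 84.0 FPKM with TP53TG1, against 70.6, 70.1 and 72.4 FPKM in controls. The controls were nearly equal and the TP53TG1 libraries lay on both sides of them. The log2 fold change was -0.35 with an SE of 0.344 and an adjusted p of 0.748 in limma with Benjamini-Hochberg adjustment, and 0.05 after scaling. CTBP1-AS2, on the opposite strand over its 5′ end, ranged from 2.29 to 7.70 FPKM; whether the libraries keep the strand is not given in the sources used here.

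**Figure D2:**
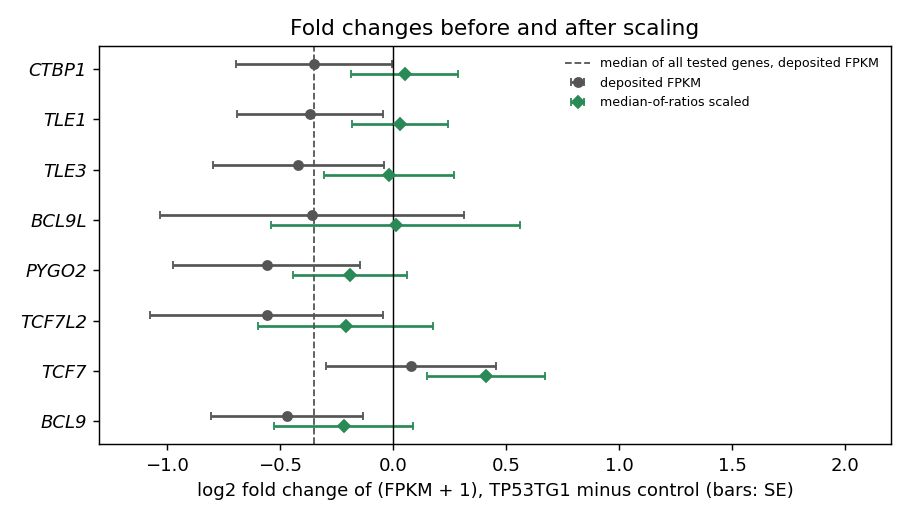
Log2 fold change of the 8 tested genes (TP53TG1 minus control, on log2 of FPKM + 1) with its SE, from the deposited FPKM (grey circles) and after median-of-ratios scaling (green diamonds). The dashed line is the median of all tested genes at -0.35; the unscaled values lie at or below it, TCF7 excepted, which lies above it at 0.08.

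In single genes the exact two-sided permutation test gave p from 0.2 to 0.9, where 3 against 3 libraries cannot give less than 0.1. Of 7 ratios between members or their paralogs, none was below 0.300 by that exact permutation test, and each had a Benjamini-Hochberg adjusted p of 0.700. The ratio of TCF7L2 to TCF7 was 0.954, 2.56 and 0.866 with TP53TG1, against 1.23, 2.16 and 3.70 in controls. TCF7L2 exceeded TCF7 in all 3 controls and in TP53TG1 replicate 2.

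Of the 141 member transcripts 97 had a value above 0 in some library, and 24 had a mean of at least 1 FPKM and were tested. In limma with Benjamini-Hochberg adjustment 0 of the 24 were called, where 0.00329% of all 30396 tested transcripts were called, and none had an unadjusted p under 0.05. As shares of their gene's FPKM, 19 member transcripts were tested. Again 0 were called, as were 0% of the 22164 shares tested. For 1 of the 19, TCF7-201, the share had an unadjusted limma p under 0.05 and groups that did not overlap. It lay lower with TP53TG1, where 2.99% of all shares lay lower without overlap and 2.27% lay higher. TCF7-201 passed the filter of 1 FPKM, at a mean of 1.08 FPKM, only through the controls. These averaged 1.36 FPKM, against 0.800 FPKM with TP53TG1, so its share is described here and not taken as support.

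The share of TCF7 on the long form lay lower with TP53TG1 in every library. TCF7-201 measured 0.36, 0.63 and 1.41 FPKM with TP53TG1, against 1.42, 1.45 and 1.21 FPKM in controls. TCF7-203 measured 2.15, 2.66 and 4.62 FPKM with TP53TG1, against 2.98, 2.46 and 1.98 FPKM in controls. The long form thus overlapped between the groups in TP53TG1 replicate 3 alone, and the short form overlapped in replicates 1 and 2. As a share of TCF7, TCF7-201 held 11.0, 11.9 and 18.5% with TP53TG1, against 27.5, 27.2 and 30.1% in controls. No TP53TG1 share reached the lowest control share. The means were 13.8 ± 4.13% with TP53TG1 and 28.3 ± 1.60% in controls (SD, n = 3 each), a difference of -14.5 percentage points with an SE of 4.92. The limma test over all shares with Benjamini-Hochberg adjustment gave an adjusted p of 1.0, the exact permutation test 0.1, the smallest it can give, and the difference stayed between -16.8 and -13.1 points when single libraries or both libraries numbered 1 were left out. TCF7-203 held 58.8 ± 7.91% with TP53TG1 and 51.0 ± 5.94% in controls (SD, n = 3 each), and these overlapped.

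All TCF7 transcripts were also grouped by their annotated start codon, a grouping chosen after the values were seen. The upstream class was TCF7-201 and TCF7-204, and TCF7-204 measured 0.06 FPKM in TP53TG1 replicate 1 and 0 elsewhere. The downstream class held most of the remainder, so these classes largely restate the TCF7-201 share. Transcripts from the upstream start codon at position 134114907 held 12.8, 11.9 and 18.5% with TP53TG1, against 27.5, 27.2 and 30.1% in controls. Transcripts from the downstream start codon at position 134115938 held 81.4, 79.8 and 76.1% with TP53TG1, against 66.2, 61.7 and 60.7% in controls. TCF7-203 by itself overlapped, and the class also holds TCF7-210 and TCF7-221, which have no annotated stop codon. TCF7-210 held a mean of 6.83% with TP53TG1 and 1.49% in controls, and TCF7-221 held 11.7% and 5.13%. These 2 transcripts averaged 0.245 and 0.410 FPKM over the 6 libraries. Neither start codon class overlapped between the groups. Of the 11 start codon classes of 7 member genes that held a mean of 5 to 95% of their gene, these 2 alone did not overlap. Over all tested genes 2.90% of 10373 such classes lay lower and 2.60% lay higher with TP53TG1 without overlap. Grouped by stop codon or biotype, 2 small classes of CTBP1 transcripts also did not overlap. Those ending at position 1221804 had a mean share of 1.12% with TP53TG1 and 0% in controls. The processed transcripts of CTBP1 held 2.47% with TP53TG1 and 0.211% in controls. The share of stop codon and biotype classes without overlap was not computed over all genes, so these 2 have no background to be read against. The means were 14.4 ± 3.61% with TP53TG1 and 28.3 ± 1.60% in controls for the upstream start, and 79.1 ± 2.73% with TP53TG1 and 62.9 ± 2.90% in controls for the downstream start (SD, n = 3 each; exact permutation p of 0.1 for each). The short form was the larger in all 6 libraries. These shares rest on few fragments, an estimated 18.1 to 94.0 for TCF7-201 and 99.9 to 285 for TCF7-203 with TP53TG1, and 73.8 to 92.9 and 112 to 180 in controls, and on how reads over shared exons were divided between transcripts, which was not tested.

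**Figure D3:**
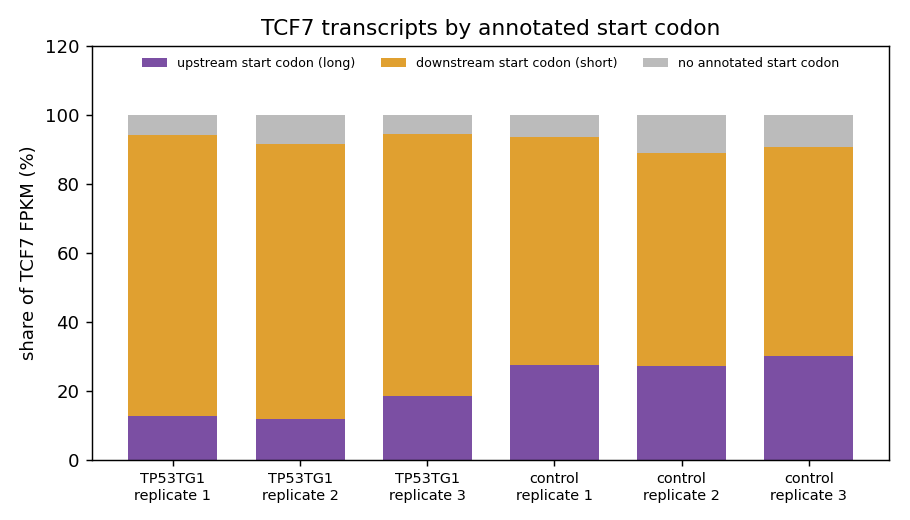
Share of TCF7 FPKM (percent, stacked bars) in each TP53TG1 library (left) and control library (right) on transcripts with the upstream start codon, the downstream start codon or none annotated. The upstream class is 11.9 to 18.5% with TP53TG1 and 27.2 to 30.1% in controls.

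TCF7L2 was spread over many transcripts, 23 of its 30 above 0, and no class of them separated the groups. Transcripts ending at the stop codon of the long tail, the form that can bind CtBP, held 44.1, 33.9 and 54.5% with TP53TG1, against 28.5, 50.6 and 35.5% in controls. Transcripts ending at the stop codon of the short tail held 46.0, 40.2 and 22.2% with TP53TG1, against 51.7, 28.3 and 39.6% in controls. The long tail led in TP53TG1 replicate 3 and control replicate 2 and the short tail in the other 4 libraries, and both classes overlapped between the groups. TCF7L2-216, a short-tail form, held 46.0 and 47.6% in the libraries numbered 1 of TP53TG1 and control, and 3.89 to 10.9% in the other TP53TG1 libraries and 4.17 to 5.13% in the other controls. TCF7L2-210, a long-tail form, held 27.5, 8.96 and 12.9% with TP53TG1, against 7.21, 12.0 and 2.22% in controls, and its groups overlapped. TCF7L2-205, TCF7L2-211, TCF7L2-217, TCF7L2-218, TCF7L2-220 and TCF7L2-223 each held 0 to 18.7% in any TP53TG1 library and 0 to 16.3% in any control.

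In unscaled FPKM several member transcripts lay apart in the libraries numbered 1, as many transcripts of other genes did. Of the 24 tested, 11 lay lower in both libraries numbered 1 than in the other 4, where 31.9% of all tested transcripts did so, and 1, TCF7L2-216, lay higher, where 13.6% did so. The 11 came from TLE3, TCF7L2, CTBP1, PYGO2, BCL9L and TLE1. The 3 tested transcripts of BCL9L were among them. At the level of genes after scaling, 3 of the 8 tested members lay lower in both libraries numbered 1, TCF7L2, PYGO2 and BCL9L. BCL9 was the 1 that lay higher. Of all tested genes 29.3% lay lower and 28.9% higher in this way. BCL9L-202, the form that begins at the inner start codon, measured 0.03, 7.34 and 7.18 FPKM with TP53TG1, against 0.26, 5.60 and 6.79 FPKM in controls. BCL9L-205, a transcript of 611 bases, measured 0, 7.20 and 10.8 FPKM with TP53TG1, against 0.32, 8.60 and 12.0 FPKM in controls. Both were nearly missing from the libraries numbered 1 under either plasmid. The long form BCL9L-201 measured 4.87, 14.2 and 13.0 FPKM with TP53TG1, against 12.2, 12.2 and 14.8 FPKM in controls, and so stood far below the others in TP53TG1 replicate 1 alone. It made up 99.4 and 95.0% of BCL9L in the TP53TG1 and control libraries numbered 1, and 38.0 to 49.5% in the other TP53TG1 and 44.0 to 46.2% in the other control libraries.

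**Figure D4:**
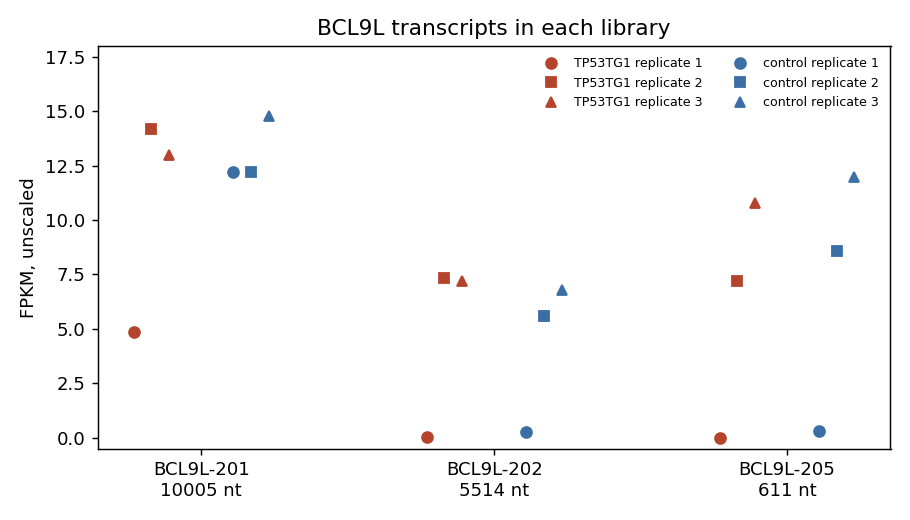
FPKM of 3 BCL9L transcripts in TP53TG1 libraries (red, left) and control libraries (blue, right), with marker shapes for the replicate number and transcript length below each name. BCL9L-202 and BCL9L-205 reach at most 0.32 FPKM in the libraries numbered 1 and at least 5.60 FPKM elsewhere.

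In TLE1 the full-length form TLE1-203 held 37.1, 52.4 and 52.7% with TP53TG1, against 39.7, 52.2 and 52.9% in controls. The short form TLE1-201 held 61.6, 47.0 and 44.7% with TP53TG1, against 59.5, 46.7 and 46.6% in controls. The short form led in both libraries numbered 1 and the full form in the other 4. In TLE3 the retained-intron transcripts held 55.2, 32.1 and 23.4% with TP53TG1, against 35.4, 23.1 and 30.2% in controls, most of it on TLE3-218, a transcript of 519 bases. The groups overlapped, and TP53TG1 replicate 1 was the highest. TLE3-208, a coding form, held 21.1 ± 7.30% with TP53TG1 and 26.2 ± 3.88% in controls (SD, n = 3 each). TLE3-201, a coding form of 5207 bases, was listed at 0 in TP53TG1 replicate 1 and measured 0.38 FPKM in control replicate 1, against 2.61 to 5.16 FPKM in the other TP53TG1 and 3.95 to 4.68 FPKM in the other control libraries.

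CTBP1 was led by the form with the short 5′ coding end. CTBP1-203 measured 12.1, 27.3 and 28.1 FPKM with TP53TG1, against 40.0, 31.7 and 32.1 FPKM in controls. In unscaled FPKM every TP53TG1 value lay below every control, though limma with Benjamini-Hochberg adjustment gave an adjusted p of 0.946. Overlap of transcripts was not read after scaling. Of the 24 tested member transcripts, CTBP1-203 and TLE3-226 were the 2 that lay lower without overlap, where 9.41% of all tested transcripts did so. Of the same 24, 0 lay higher, where 0.582% did so. TLE3-226, a coding form, measured 2.59, 4.12 and 3.77 FPKM with TP53TG1, against 6.08, 6.24 and 6.33 FPKM in controls. The share of CTBP1-203 was 38.2 ± 6.66% with TP53TG1 and 48.8 ± 6.90% in controls (SD, n = 3 each), and the shares overlapped. CTBP1-201, with the long end, measured 9.98, 6.87 and 8.54 FPKM with TP53TG1, against 8.16, 5.53 and 7.55 FPKM in controls. It held 29.2% of the gene in TP53TG1 replicate 1 and 7.89 to 11.6% in the other 5 libraries. CTBP1-205 was listed at 0 in both libraries numbered 1 and measured 2.56 and 6.12 FPKM in the other TP53TG1 libraries, against 6.33 and 8.71 FPKM in the other controls. CTBP1-215, a retained-intron transcript, was also listed at 0 in both libraries numbered 1 and measured 3.85 and 7.55 FPKM in the other TP53TG1 libraries, against 3.90 and 4.90 FPKM in the other controls. CTBP1-204, a coding transcript, held 26.7 ± 2.83% with TP53TG1 and 25.1 ± 3.74% in controls (SD, n = 3 each). BCL9 came mainly from 1 coding transcript, BCL9-201, at 85.3 ± 16.6% with TP53TG1 and 86.3 ± 4.81% in controls (SD, n = 3 each).

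The partners of the 10 genes were read from 6 lists of 51 genes, of which 47 were tested. In limma with Benjamini-Hochberg adjustment 0 of 47 were called in either direction, and none had an unadjusted p under 0.05. Their median log2 fold change was -0.42, and -0.04 after scaling, against -0.35 and -0.0040 for all tested genes. CTNNB1, which codes for beta-catenin, measured 40.7, 144 and 133 FPKM with TP53TG1, against 83.5, 148 and 154 FPKM in controls. TP53TG1 replicate 1 was the lowest and the groups overlapped, at a log2 fold change of -0.42 with an SE of 0.490 and an adjusted p of 0.748. The groups did not overlap for 8 of the 47 genes, all lower with TP53TG1, where 13.3% of tested genes lay so; after scaling 1 lay lower and 1 higher.

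The paralogs of the members showed the same picture. TLE2 averaged 2.59 ± 1.06 FPKM with TP53TG1 and 1.85 ± 0.786 FPKM in controls, and AES, a short Groucho relative that lacks the repeats of the full proteins, averaged 128 ± 37.9 FPKM with TP53TG1 and 164 ± 84.6 FPKM in controls (SD, n = 3 each). TLE4 reached 0.58 FPKM in TP53TG1 replicate 1 and at most 0.16 FPKM elsewhere. CTBP2 averaged 18.4 ± 10.8 FPKM with TP53TG1 and 25.6 ± 6.43 FPKM in controls (SD, n = 3 each), and CTBP1 exceeded it in 6 of 6 libraries. Among the coactivator and corepressor partners the genes with the smallest p were TBL1X, at a log2 fold change of -1.09 with an SE of 0.519, and HBP1, an HMG-box repressor, at -0.87 with an SE of 0.410. Neither passed, each with an adjusted p of 0.748 in limma with Benjamini-Hochberg adjustment. CARM1, an arginine methyltransferase, averaged 22.2 ± 3.80 FPKM with TP53TG1 and 32.4 ± 1.93 FPKM in controls (SD, n = 3 each) without overlap, at -0.54, and -0.15 after scaling.

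Of 17 Wnt target genes 11 were tested and 0 were called by limma with Benjamini-Hochberg adjustment, while 3 had an unadjusted p under 0.05, DKK1 and TDGF1 among them, against 302 of the 12853 genes tested. AXIN2, a negative feedback target, averaged 6.69 ± 5.09 FPKM with TP53TG1 and 5.81 ± 1.54 FPKM in controls (SD, n = 3 each). DKK1, a secreted Wnt antagonist, measured 58.0, 90.0 and 157 FPKM with TP53TG1, against 34.9, 26.1 and 47.8 FPKM in controls. TDGF1, a co-receptor of Nodal, measured 0.30, 0.57 and 0.02 FPKM with TP53TG1, against 2.09, 1.96 and 2.85 FPKM in controls. For both, the groups did not overlap, before or after scaling. Of the 11 tested DKK1 was the 1 that lay higher and TDGF1 the 1 that lay lower. Of all tested genes 0.428% lay higher and 13.3% lay lower without overlap, and 2.01% and 2.05% after scaling. With the replicate number as a block in limma, where 1.49% of all genes were called, DKK1 rose, at an adjusted p of 0.00189, and TDGF1 fell, at an adjusted p of 0.00526. With the block and scaling together DKK1 had an adjusted p of 0.0333 and TDGF1 one of 0.762. No member was called with the block.

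**Figure D5:**
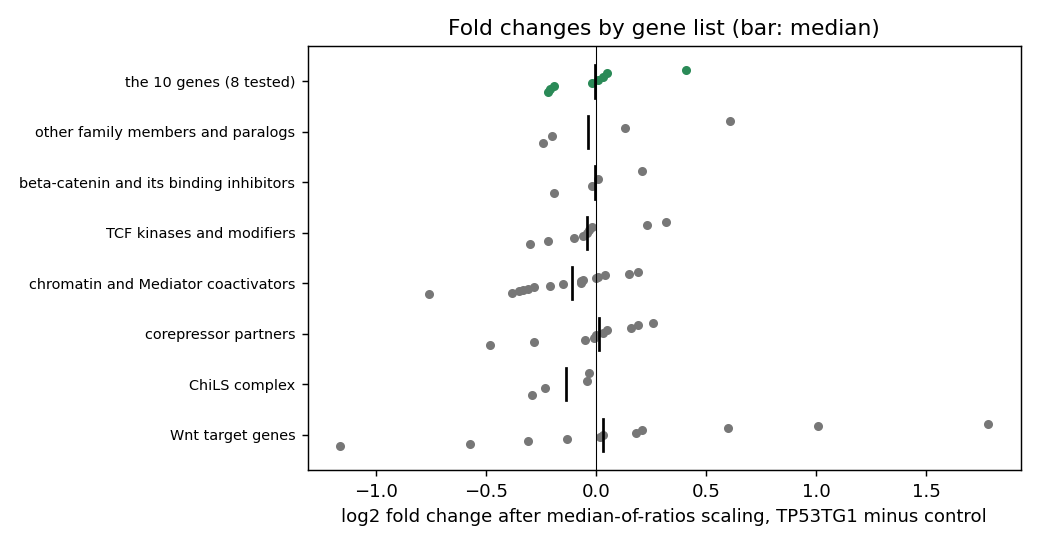
Log2 fold change after median-of-ratios scaling (TP53TG1 minus control) of the 8 tested members (green) and of the tested genes of the partner and Wnt target lists (grey), with the median of each list as a black bar. The members lie between -0.22 and 0.41 around a median of -0.01.

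The promoters of the members were read for CTTTGAT and CTTTGAA, the letters that TCF factors are known to bind, because some TCF genes are themselves Wnt targets. Either motif on either strand was found in 0 of 16 windows of 9 member genes, each from 250 bases before to 50 after a RefSeq gene start on GRCh38.p14, and in 6.86% of the 35116 windows of all genes. These letters are not in those windows, and other windows were not used here. The TCF7 windows were chr5:134115363-134115662 and chr5:134123368-134123667. The start of the long form TCF7-201, at position 134114711, lay outside them and was not read.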

How the data were processed

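RNA was sequenced from 3 TP53TG1-plasmid and 3 empty-plasmid libraries. The submitters' processing notes name HISAT2, StringTie and GRCh38.p10, without versions. Whether libraries were stranded, and the annotation release, is not given in the sources used here. For every transcript the authors deposited 1 value, taken as FPKM, since the values are not whole and library totals differ; the headers name no unit, and FPKM are not scaled between libraries. Count tests were therefore not run. Symbols blank in 0 to 88000 rows per library were filled by transcript from the other libraries, and values were summed per gene. Structures came from GENCODE 29, which held 99.8% of the transcripts.

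Genes and transcripts averaging 1 FPKM or more were tested on log2(FPKM + 1), which understates changes of low genes, with limma 3.58.1 in R 4.3.3 (trend, TP53TG1 minus control), Benjamini-Hochberg adjusted over all tested, at a threshold of 0.05. Shares were tested likewise, in percent, for transcripts of at least 1 FPKM with a mean share of 5 to 95%. Scaling divided each library by its median of ratios. Depth was estimated from the step between low values and carries no interval. Only the unscaled gene fit without the block was run on simulated data, with changes in high genes that were larger than those of the members. The scaled, block and share fits were not simulated. Tables were joined with Python 3.11.15 and pandas 2.3.3.

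The members and lists were chosen with earlier results of these data known. Named were all members, their transcripts with at least 5% of the gene and a mean of 0.5 FPKM or more, up to 4 genes per list by smallest p, set paralogs, CTNNB1 and TP53TG1; AXIN2, CTBP1-215 and some markers were chosen after values were seen. One Wnt target gene is left out of the text. The labels number both groups 1 to 3 without saying what a number shares. Deviations from the group means correlated at 0.710, 0.562 and 0.289 between same-numbered libraries, above the limit of 0.1. The numbers were therefore taken as pairs and a fit with the replicate block was run. However, TP53TG1 replicate 2 with control replicate 3, at 0.400, exceeded the pair numbered 3. So did TP53TG1 replicate 3 with control replicate 2, at 0.302. Numbers 2 and 3 are thus not shown to be pairs, and every result of the block rests on that pairing. Alternatives changed the scaling, pseudocount, filter, block and libraries used.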

Additional observations from a re-analysis of the deposited data

How the results depend on the processing

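Under the alternatives run, 125 of 143 member fold changes kept their direction. Of the 143, 0 were called, with a lowest adjusted p of 0.495 in limma with Benjamini-Hochberg adjustment. Every setting without median-of-ratios scaling had a negative median over its tested genes, between -0.48 and -0.12. A negative direction kept there cannot tell a member from that general shift, so the count of 125 is not read as robustness of the members. The direction turned for TCF7, at -0.02 without control replicate 3 and -0.16 without TP53TG1 replicate 3. With a single library left out TCF7 ranged from -0.16 to 0.34 and BCL9L from -0.83 to 0.46. The direction also turned after scaling, with or without the replicate block, for BCL9L at 0.01, TLE1 at 0.03 and CTBP1 at 0.05, and for protein-coding transcripts with scaling for TLE1 and CTBP1 at 0.03 each. Without TP53TG1 replicate 1 BCL9L came to 0.46, and with scaling added TCF7L2 to 0.01, BCL9L to 0.59, TLE1 to 0.00 and CTBP1 to 0.13. Without both libraries numbered 1 BCL9L came to 0.07, and with scaling BCL9L to 0.25 and CTBP1 to 0.16. The cause was not tested.

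Of all genes 1 was called as reported, 2 after scaling, 0 with no filter, 2 at a mean of at least 5 FPKM, 192 with the replicate block, 6 with the block and scaling, 0 with coding transcripts only, with or without scaling, 2 without TP53TG1 replicate 1 with scaling, 10 without both libraries numbered 1 with scaling, and 0 to 1 with any single library left out. Of Wnt target genes 2 were called with the block and 1 with block and scaling, against 0 as reported. Of transcripts 1 was called as reported, 12 with the block, 0 with scaling, no filter, the higher filter, or block and scaling, and 0 to 1 with a single library left out. The groups of members did not overlap for 0 genes as reported, for 1 after scaling, for 1 without both libraries numbered 1, and for 0 to 2 with a single library left out, where fewer libraries make this easier. The block changed no call of a member, a member transcript or a partner gene. Alternatives on protein-coding transcripts, on shares and with scaling for left-out libraries were chosen after seeing the data. LEF1 and TCF7L1 averaged under 1 FPKM and were not tested, and TCF7-201 lay under 1 FPKM in TP53TG1 replicates 1 and 2, so its share there rests on few fragments.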
